A study of Rattus norvegicus with 6 samples.

Results

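The ESCRT genes of lysosome repair were followed in RNA sequencing of rat spinal cord cultures that the study called neurons. The group held 10 genes chosen by symbol, namely TSG101, VPS28, VPS37A, PDCD6IP, PDCD6, CHMP2A, CHMP3, CHMP4B, VPS4A and VPS4B, out of 17648 genes in the table. All 10 were listed once, and all 10 passed the filter on low values, a mean over the 6 libraries of 1 or more, which left 8495 genes for testing. The cells came from the spinal cords of neonatal Sprague-Dawley rats and were cultured for 3 days, with Ara-C added against dividing cells. The Glu + siR-Con group (3 libraries) had received a control siRNA (small interfering RNA) by transfection, and the Glu + siR-GAL3 group (3 libraries) an siRNA that targets GAL3. By the methods of the study, both groups were exposed to 10 μM glutamate for 1 h and then kept for 16 h without it. The sample labels instead gave saline, or 0 μM glutamate, for the siR-Con libraries and called the siR-GAL3 cells a knockout, while the design text called all 6 libraries glutamate-treated. If the sample labels are right, glutamate and siRNA cannot be told apart. The methods speak of independent repeats for the study's data in general, but no source used here ties the libraries of a group to separate cultures, so the p-values measure only the spread between these libraries, which may be in part technical.

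ESCRT proteins (endosomal sorting complexes required for transport) bend and cut membranes from the inside of a neck, and they also close small holes in membranes. When a lysosome is damaged, calcium leaks out and is sensed by ALG-2, the product of PDCD6, which brings ALIX, the product of PDCD6IP, and the ESCRT-I complex with its subunit TSG101 to the membrane. Both routes lead to ESCRT-III filaments, which contain CHMP4B and are completed by CHMP2A and CHMP3, and the ATPases VPS4A and VPS4B take the filaments apart. Galectin-3, the product of LGALS3, binds sugars that are exposed on the inner face of broken lysosomes and is known to associate with ALIX there. The comparison of the siR-GAL3 with the siR-Con libraries asks how the RNA of this machinery differed when GAL3 was targeted, and TSG101 was set against the other 9 genes.

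For the 10 genes, RefSeq promoters of assembly GRCr8 were matched by symbol, and 8 had an entry. The 250 bases before the start site are given for TSG101 and VPS4B, the 2 genes whose groups did not overlap, and for VPS4A, the close relative of VPS4B whose groups did. Each is written 5′ to 3′ in the orientation of the RefSeq table, taken to be the gene's strand and not checked against a genome, and capitals mark a GC box (GGGCGG on either strand) or a CCAAT box (CCAAT on either strand). The TSG101 sequence lies at chr1:106578776-106579025 on the minus strand, the VPS4A sequence at chr19:51844543-51844792 on the plus strand and the VPS4B sequence at chr13:23446849-23447098 on the minus strand.
TSG101: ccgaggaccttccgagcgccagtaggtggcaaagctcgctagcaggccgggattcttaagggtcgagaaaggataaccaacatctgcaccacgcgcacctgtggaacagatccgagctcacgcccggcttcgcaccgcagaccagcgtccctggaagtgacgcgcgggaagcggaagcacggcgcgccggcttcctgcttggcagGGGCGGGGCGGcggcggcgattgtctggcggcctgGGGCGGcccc
VPS4A: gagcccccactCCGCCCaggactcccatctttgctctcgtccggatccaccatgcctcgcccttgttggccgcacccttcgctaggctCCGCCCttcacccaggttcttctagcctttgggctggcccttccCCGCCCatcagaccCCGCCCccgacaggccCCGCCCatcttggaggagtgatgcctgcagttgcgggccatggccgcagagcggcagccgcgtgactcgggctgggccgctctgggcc
VPS4B: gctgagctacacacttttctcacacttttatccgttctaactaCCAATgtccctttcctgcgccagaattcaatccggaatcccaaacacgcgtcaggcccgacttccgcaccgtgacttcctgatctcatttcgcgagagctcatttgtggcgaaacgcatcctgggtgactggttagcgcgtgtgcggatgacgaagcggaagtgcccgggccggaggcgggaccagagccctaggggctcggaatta
The TSG101 window held 3 GC boxes, of which 2 overlap by 1 base, and no CCAAT box. The VPS4A window held 5 GC boxes, whereas the VPS4B window held none and had 1 CCAAT box. CHMP2A had 2 windows, so the 8 are counted by gene, whereas the shares over all promoters are counted by promoter. GC boxes stood in 4 of the 8 genes (TSG101, VPS4A, CHMP3 and PDCD6) and in 30.5% of all 33469 promoters of this length. A CCAAT box stood in 1 of the 8 and in 34.0% of all promoters, and the E-box CACGTG in 1 of the 8 (PDCD6IP) and in 5.59%. These matches are descriptions of letters in a window, and no binding was measured in these cells.

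The values are on a linear scale that the authors derived from FPKM (fragments scaled by transcript length and by the mapped total), so levels can be compared between genes per length, but how deeply each library was sequenced is unknown. The column totals were close to each other, between 64313 and 64714, and 3.86% of all values were below 0, none of them in the 10 genes. One library stood apart. The siR-GAL3 replicate 2 scored 27.9 on the first principal component, which carried 65.2% of the variance, while the other 5 libraries lay between -8.52 and -1.94. Exactly equal values also sorted the libraries into 3 sets. Pairs of libraries within a set shared 1312 to 1463 equal nonzero values, and pairs between sets 238 to 264. Set 1 held replicate 1 of both groups, set 2 held siR-Con replicates 2 and 3 with siR-GAL3 replicate 3, and set 3 was siR-GAL3 replicate 2 alone. For this reason, values without siR-GAL3 replicate 2 or within sets are also given. In LGALS3, the targeted gene, the siR-Con libraries had values of 77.4, 54.4 and 62.4, and the siR-GAL3 libraries -1.64, 32.3 and 18.5. All 3 siR-GAL3 libraries lay below all siR-Con libraries, and the mean was 74.7% lower. limma gave LGALS3 a log2 fold change of -2.91 with an adjusted p = 0.571, and that fold depends on the value below 0, which was set to 0 before the logarithm.

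The cultures were called spinal cord neurons, and the neuronal markers ranged widely in level. MAP2, a dendritic microtubule protein, lay between 13.1 and 19.0 and TUBB3, a neuronal tubulin, between 4.03 and 5.19. SYT1 had a mean of 1.89 and STMN2 of 1.06. RBFOX3, the neuronal nuclear marker, lay between 0.30 and 0.43 in all 6 libraries, NEFL and NEFM also had means below 1, and SNAP25 was not listed. The summed level of the 7 neuron markers in the table was 24.3 to 28.5 in the siR-Con and 22.4 to 27.6 in the siR-GAL3 libraries, against 802 to 1069 for 8 astrocyte markers and 1055 to 1385 for 10 oligodendrocyte lineage markers. The astrocyte sum was 928 to 1069 in siR-Con and 802 to 866 in siR-GAL3. GFAP alone had a mean of 655 in siR-Con and 524 in siR-GAL3. Of the 8 astrocyte markers, 6 had a negative and 2 a positive log2 fold change, against 50.0% positive among all genes. The microglia sum of 10 markers was 80.3 to 96.5 in siR-Con and 101 to 120 in siR-GAL3. All 9 microglia markers tested had a positive log2 fold change, but only 4 did not overlap between groups. Of all genes, 10.3% lay above in this way. The fibroblast sum of 5 markers was 43.1 to 50.6 in siR-Con and 33.0 to 38.1 in siR-GAL3, with 4 of the 5 log2 fold changes negative and 1 positive. The 3 endothelial markers in the table summed to at most 1.10. The proliferating cell sum lay between 11.6 and 17.2. The ESCRT genes are used by every cell type, so these sums stand beside every comparison below, and their part in it was not tested. In such bulk samples, fewer cells of a type and less RNA per cell cannot be told apart.

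In these cultures the ESCRT genes spanned an 8.78-fold range of FPKM-derived level. CHMP4B, the main filament subunit, was the highest with a mean of 19.8 ± 2.30 (SD, n = 6), followed by CHMP2A at 16.3 ± 2.92 and TSG101 at 11.7 ± 1.02. CHMP3 had a mean of 10.1 ± 0.499 and VPS28 of 9.94 ± 0.964, and CHMP3 exceeded VPS28 in 4 of 6 libraries. VPS4A had 8.0 ± 0.387, PDCD6 6.30 ± 0.687 and PDCD6IP 6.01 ± 0.466, and PDCD6 exceeded PDCD6IP in 3 of 6 libraries. VPS4B followed at 4.10 ± 0.260, and VPS37A was the lowest at 2.26 ± 0.224. All other neighbours in this order kept their places in 6 of 6 libraries, and TSG101 was the third of the 10 in every library. The ESCRT-III subunits of the filament were listed at levels above those of the ALIX branch that recruits them in all 6 libraries. The coefficient of variation over the 6 libraries ran from 4.83% for VPS4A to 18.0% for CHMP2A. Its median was 9.20%, beside 11.7% for all 8495 genes.

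**Figure D1:**
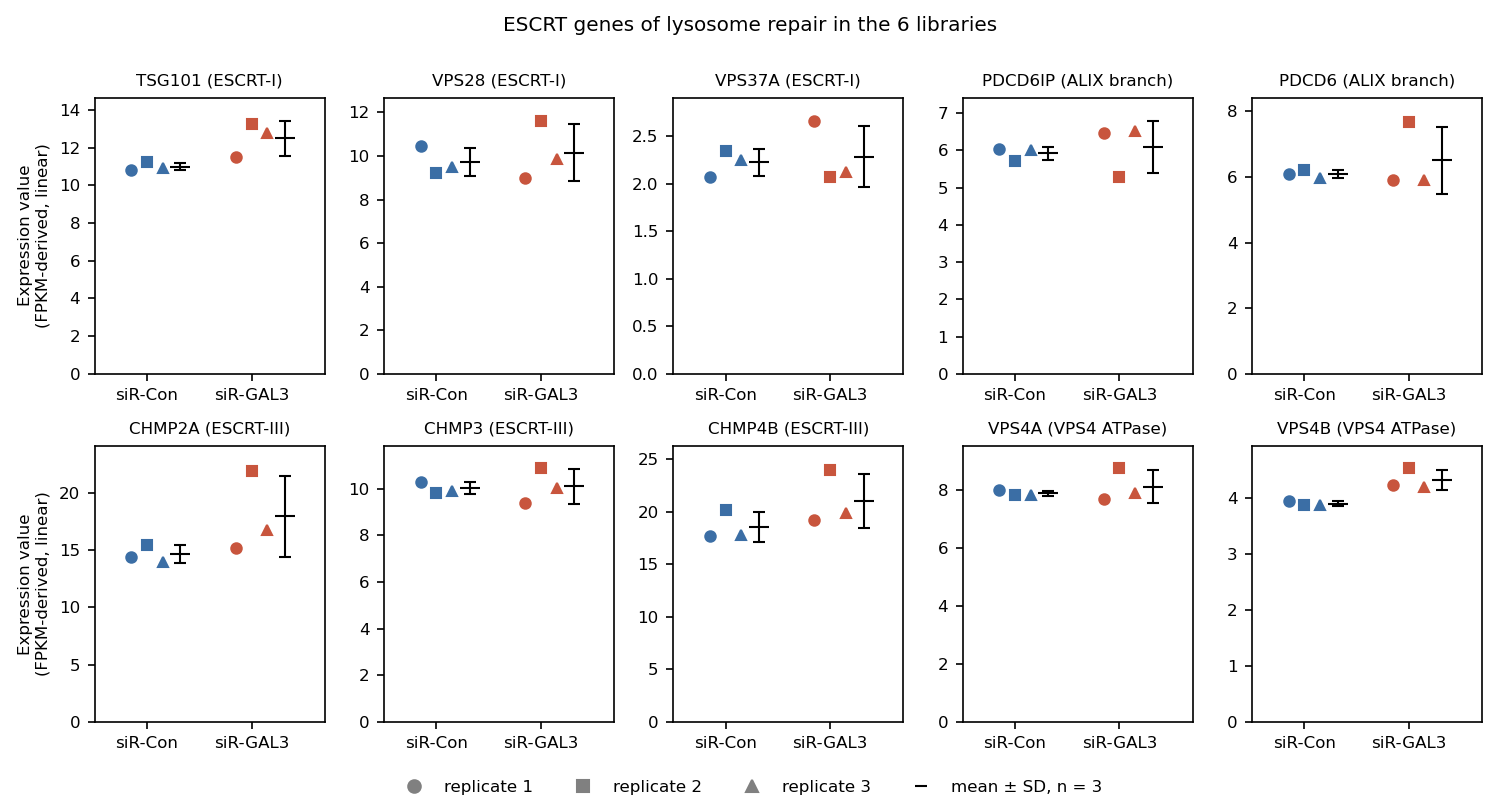
Expression value (FPKM-derived, linear, axis from 0) of each of the 10 ESCRT genes in the 3 siR-Con and 3 siR-GAL3 libraries, with the replicate shown by symbol and the mean ± SD by bars (n = 3). The siR-GAL3 points of TSG101 (11.5 to 13.3) and VPS4B (4.19 to 4.52) lie above all siR-Con points, and siR-GAL3 replicate 2 is the highest point in 8 of the 10 panels.

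TSG101 is the ESCRT-I subunit that binds ubiquitin and short peptide motifs on cargo and partner proteins. Its values were 10.8, 11.2 and 10.9 in the siR-Con libraries and 11.5, 13.3 and 12.8 in the siR-GAL3 libraries. Every siR-GAL3 library was above every siR-Con library, and the siR-GAL3 replicate 1 lay closest to the siR-Con range. The means were 11.0 ± 0.203 and 12.5 ± 0.927 (SD, n = 3 each), a difference of 13.8%, or 10.3% without siR-GAL3 replicate 2. On the log2(value + 1) scale limma gave a log2 fold change of 0.17 (SE 0.074, 95% interval -0.01 to 0.34) with an unadjusted p = 0.0565 and an adjusted p = 0.577, so the difference did not pass the test. A two-sided exact permutation test gave p = 0.1, which is the minimum for 3 libraries against 3. Over the 15 alternative settings the adjusted p of TSG101 lay between 0.319 and 0.874. Its unadjusted p in limma was under 0.05 in 4 of them. These were no filter, no logarithm, library set as a block, and the fit without siR-GAL3 replicate 1. The lowest was 0.0231 without siR-GAL3 replicate 1, where 1249 of all 8495 genes had an unadjusted p under 0.05. Within set 1 the log2 difference was 0.08 and within set 2 it was 0.19, each with a single siR-GAL3 library. Both had to be positive, because every siR-GAL3 library was above every siR-Con library. Of all 8495 genes, 12.3% had a higher log2 fold change than TSG101.

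The other ESCRT-I subunits overlapped between groups. VPS28, which joins ESCRT-I to the next complex of the pathway, had 10.5, 9.23 and 9.48 in the siR-Con and 9.0, 11.6 and 9.87 in the siR-GAL3 libraries. The highest and the lowest of the 6 values were both siR-GAL3 libraries, and the log2 fold change of 0.05 (95% interval -0.19 to 0.29, adjusted p = 0.815, limma) became -0.04 without siR-GAL3 replicate 2. Within set 1 the log2 difference of VPS28 was -0.20 and within set 2 it was 0.07. VPS37A, a subunit that holds the complex together, had 2.07, 2.35 and 2.25 in siR-Con and 2.66, 2.07 and 2.13 in siR-GAL3. Only siR-GAL3 replicate 1 stood above the siR-Con range, and the log2 fold change was 0.02 (95% interval -0.18 to 0.23, adjusted p = 0.907, limma). The log2 difference of VPS37A was 0.25 within set 1 and -0.08 within set 2. VPS37A made up 25.5% to 32.1% of the summed level of the 4 VPS37 genes, and VPS37B was 1.64 to 2.23 times as high as VPS37A. The ratio of TSG101 to VPS28 was 1.03 to 1.22 in siR-Con and 1.14 to 1.29 in siR-GAL3, so that the ranges overlapped.

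The 2 genes of the ALIX branch differed in pattern. PDCD6IP encodes ALIX, which can start ESCRT-III assembly without ESCRT-I. Its values were 6.04, 5.73 and 6.02 in siR-Con and 6.47, 5.28 and 6.51 in siR-GAL3. Replicates 1 and 3 of siR-GAL3 were above all siR-Con libraries, but replicate 2 was the lowest of the 6. The log2 fold change was 0.03 (95% interval -0.18 to 0.24) with an adjusted p = 0.886 in limma, and it was 0.11 without siR-GAL3 replicate 2 (adjusted p = 0.298). PDCD6, the calcium sensor, had 6.10, 6.22 and 5.97 in siR-Con and 5.92, 7.68 and 5.92 in siR-GAL3. Here replicates 1 and 3 lay just below all siR-Con libraries and replicate 2 was the highest, so that the mean was 6.70% higher with replicate 2 and 2.96% lower without it. The log2 fold change of PDCD6 was 0.07 (95% interval -0.17 to 0.31, adjusted p = 0.747, limma). The rat annotation also holds the pseudogenes Pdcd6-ps1 and Pdcd6ip-ps1, so both levels are uncertain as far as reads were shared with them.

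Among the ESCRT-III subunits, CHMP2A had the largest log2 fold change of the 10 genes and the widest spread. CHMP2A, which closes the growing filament and docks VPS4, had 14.4, 15.5 and 14.0 in siR-Con and 15.2, 21.9 and 16.8 in siR-GAL3. The siR-GAL3 replicate 1 fell inside the siR-Con range, so the groups overlapped, and replicate 2 was far above the rest. The means were 14.6 ± 0.783 and 17.9 ± 3.53, and the log2 fold change of 0.26 (95% interval -0.05 to 0.58, adjusted p = 0.585, limma) was 0.12 without replicate 2. CHMP4B had 17.7, 20.2 and 17.8 in siR-Con and 19.2, 24.0 and 19.9 in siR-GAL3. The groups overlapped through siR-Con replicate 2, and the log2 fold change of 0.17 (95% interval -0.07 to 0.41, adjusted p = 0.591, limma) was 0.08 without siR-GAL3 replicate 2. The table also listed the similarly named CHMP4BL1 at 8.69 to 11.3, so reads of CHMP4B could have been split between both, and its level is uncertain to that extent. CHMP3, the partner of CHMP2A, had 10.3, 9.83 and 9.93 in siR-Con and 9.41, 10.9 and 10.0 in siR-GAL3. Its log2 fold change of 0.01 (95% interval -0.16 to 0.18, adjusted p = 0.96, limma) was the smallest of the 10.

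The VPS4 ATPases use ATP to pull ESCRT-III subunits out of the filament. VPS4B had 3.94, 3.86 and 3.87 in siR-Con and 4.23, 4.52 and 4.19 in siR-GAL3. All 3 siR-GAL3 libraries were above all siR-Con libraries, whose values lay close together. The means were 3.89 ± 0.0394 and 4.31 ± 0.183, which is 10.9% apart, or 8.18% without siR-GAL3 replicate 2. limma gave a log2 fold change of 0.12 (SE 0.062, 95% interval -0.03 to 0.27) with an unadjusted p = 0.0959 and an adjusted p = 0.585, and the two-sided exact permutation test again gave its minimum of 0.1. The log2 difference was 0.08 within set 1 and 0.09 within set 2, and both had to be positive because the groups did not overlap. VPS4A had 7.99, 7.84 and 7.83 in siR-Con and 7.69, 8.76 and 7.89 in siR-GAL3, with siR-GAL3 libraries at both ends. Its log2 fold change was 0.03 (95% interval -0.13 to 0.20, adjusted p = 0.822, limma). The ratio of VPS4A to VPS4B was 2.03, 2.03 and 2.02 in siR-Con and 1.82, 1.94 and 1.88 in siR-GAL3. The ranges of this ratio did not overlap, as those of VPS4B alone did not, whereas those of the other 6 ratios between ESCRT genes that were computed did. How often other gene pairs separate the groups was not computed. The ratio was not tested.

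**Figure D2:**
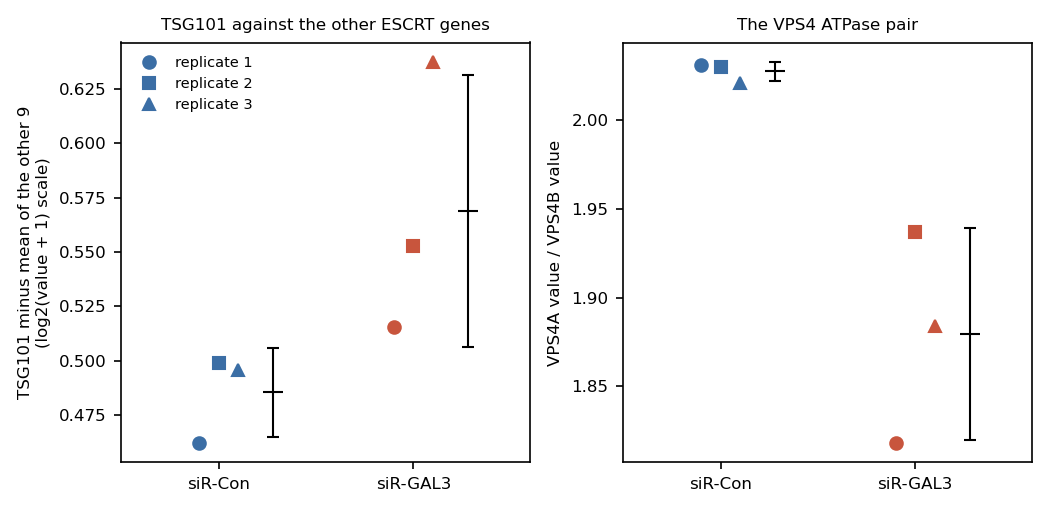
The left panel plots TSG101 minus the mean of the other 9 ESCRT genes on the log2(value + 1) scale, and the right panel the ratio of the VPS4A to the VPS4B value, per library with mean ± SD (n = 3); neither axis starts at 0. The siR-GAL3 libraries lie at 0.52 to 0.64 in the left panel, above the siR-Con libraries at 0.46 to 0.50, and below them in the right panel. How often other genes separate the groups in these ways was not computed.

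Set against the other 9 genes, TSG101 differed in the same direction as their mean and by a larger amount. On the log2(value + 1) scale TSG101 exceeded the mean of the other 9 by 0.46, 0.50 and 0.50 in the siR-Con libraries and by 0.52, 0.55 and 0.64 in the siR-GAL3 libraries. The 2 groups did not overlap in this quantity, and how often other genes separate the groups in this way was not computed. The group means were 0.49 ± 0.02 and 0.57 ± 0.06 (SD, n = 3 each), a difference of 0.08, which was 0.09 without siR-GAL3 replicate 2, 0.05 within set 1 and 0.14 within set 2. The mean log2 fold change of the other 9 was 0.09 and their median 0.05, beside 0.17 for TSG101. In order of log2 fold change TSG101 was the third of the 10, behind CHMP2A and CHMP4B. Without siR-GAL3 replicate 2 it was the first, at 0.13, followed by CHMP2A at 0.12 and PDCD6IP at 0.11. No p is given for this quantity, because the genes were chosen with earlier results known. The genes nearest to TSG101 in profile over the 6 libraries were SHARPIN, CEP63 and FBXW4, at root mean square distances of 0.01, 0.02 and 0.02 on the centred log2(value + 1) scale. Among the other 9 ESCRT genes, VPS4B was the nearest at 0.06, then CHMP4B at 0.07 and VPS4A at 0.08, and 2.71% of all genes were nearer to TSG101 than VPS4B.

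Counted together, none of the 10 genes had an adjusted p under 0.05 in limma, nor did any of the 8495 genes (0%). At an unadjusted p under 0.05 there were also 0 of the 10, against 8.66% of all genes (736 of 8495). All 10 log2 fold changes were positive, against 50.0% of all genes, with a median of 0.06 beside 0.00 for all genes. This sign rested in part on siR-GAL3 replicate 2, which was the highest of the 6 libraries in 8 of the 10 genes (41.5% of all genes) and the lowest in 1 (35.1% of all genes). Without that library 6 of the 10 were positive, with a median of 0.07, and VPS28, PDCD6, CHMP3 and VPS4A were negative. In 2 of the 10, TSG101 and VPS4B, every siR-GAL3 library was above every siR-Con library, against 10.3% of all genes. Leaving aside siR-GAL3 replicate 2, the siR-GAL3 libraries were above all siR-Con libraries in 3 of the 10 (TSG101, VPS4B and PDCD6IP; 15.6% of all genes) and below them in 1 (PDCD6; 18.1%). No ESCRT gene had an adjusted p under 0.05 without that library, where 1.97% of all genes did, or with library set as a blocking term in limma, where 1.25% did. The siR-GAL3 replicate 2 is a set of its own, so the block term takes it up. Both fits therefore rest on the same libraries and are not separate checks. The upper ends of the 95% intervals reached at most 0.58, for CHMP2A, so that a log2 fold change of 1 lay outside the interval of each of the 10.

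**Figure D3:**
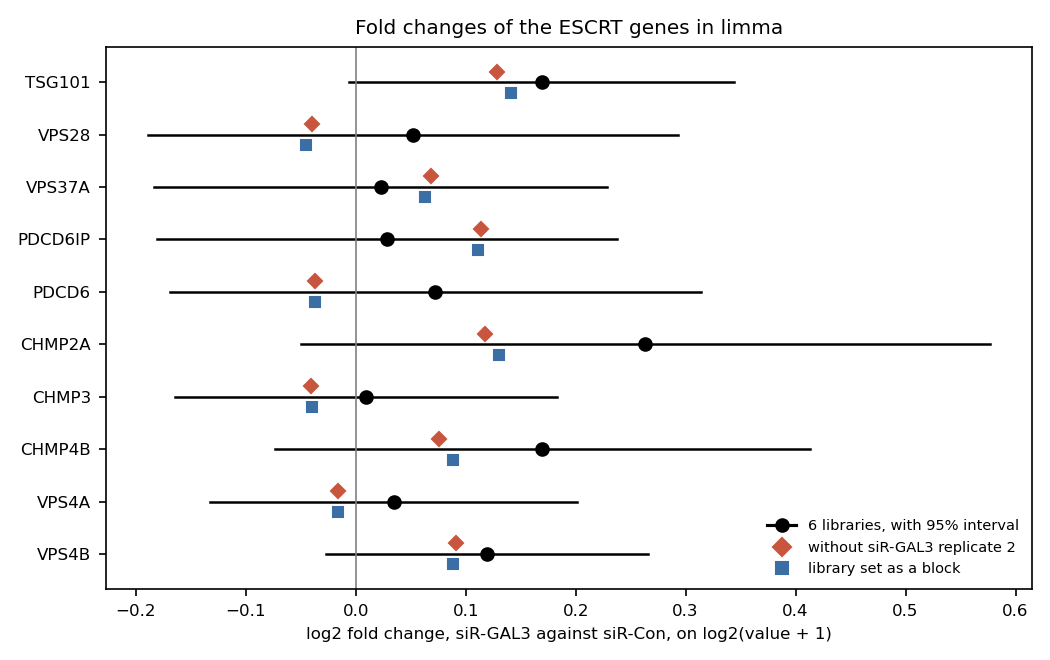
log2 fold change of each ESCRT gene, siR-GAL3 against siR-Con, on the log2(value + 1) scale in limma, with its 95% interval over 6 libraries (black) and the values without siR-GAL3 replicate 2 (red) and with library set as a blocking term (blue). Every interval includes 0, and the red and blue values of VPS28, PDCD6, CHMP3 and VPS4A lie below 0. Red and blue rest on the same libraries, because siR-GAL3 replicate 2 is a set of its own.

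The remaining ESCRT genes did not share one direction. Of 25 listed, 24 were in the table and 20 had a mean of at least 1. Of these 20, 9 had a positive and 11 a negative log2 fold change, with a median of -0.0028. Without siR-GAL3 replicate 2 or with the set block, 2 fits that rest on the same libraries, 16 of 20 were positive. None of the 20 had an adjusted p under 0.05, and 2 had an unadjusted p under 0.05, against 8.66% of all genes. Leaving out 1 library at a time gave 0 without siR-Con replicate 3, where 344 of all 8495 genes had such a p. It gave 1 without siR-Con replicate 2 (350 of all genes) or siR-GAL3 replicate 3 (575), and 3 without siR-GAL3 replicate 2 (1388). SNF8, a subunit of ESCRT-II, which links ESCRT-I to ESCRT-III, had 6.94, 6.83 and 6.78 in siR-Con and 8.07, 10.3 and 7.98 in siR-GAL3. All siR-GAL3 libraries of SNF8 were above the siR-Con libraries, and its log2 fold change of 0.31 (SE 0.10, adjusted p = 0.486, limma) was the highest of all 30 ESCRT genes tested. It was 0.20 without siR-GAL3 replicate 2, with an adjusted p = 0.0808. STAMBP, a deubiquitinase that acts with ESCRT, had 2.48, 2.51 and 2.20 in siR-Con and 2.69, 3.08 and 3.16 in siR-GAL3. Its groups did not overlap either, with a log2 fold change of 0.23 (SE 0.077, adjusted p = 0.507, limma) and a log2 difference of 0.08 within set 1 and 0.31 within set 2. MVB12A and the ESCRT-III subunit CHMP5, which were picked after their values were seen, were the other 2 of 4 genes whose siR-GAL3 libraries were all above the siR-Con libraries (10.3% of all genes), at log2 fold changes of 0.17 and 0.16, which were 0.09 and 0.11 without siR-GAL3 replicate 2. The lowest was MVB12B at -0.14, where siR-GAL3 replicate 2 had 6.95 and the other 5 libraries 10.7 to 11.9. Without that library MVB12B was at 0.07, and CHMP7 was the lowest of the 30 at -0.07. The 3 ESCRT-0 genes HGS, STAM and STAM2, which gather ubiquitinated cargo ahead of ESCRT-I, had log2 fold changes of -0.11, -0.05 and -0.12. In each, siR-GAL3 replicate 2 was the lowest library, as it was in 35.1% of all genes. Without it all 3 were positive, at 0.04, 0.09 and 0.01. TSG101 was the sixth of the 30 in order of log2 fold change.

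**Figure D4:**
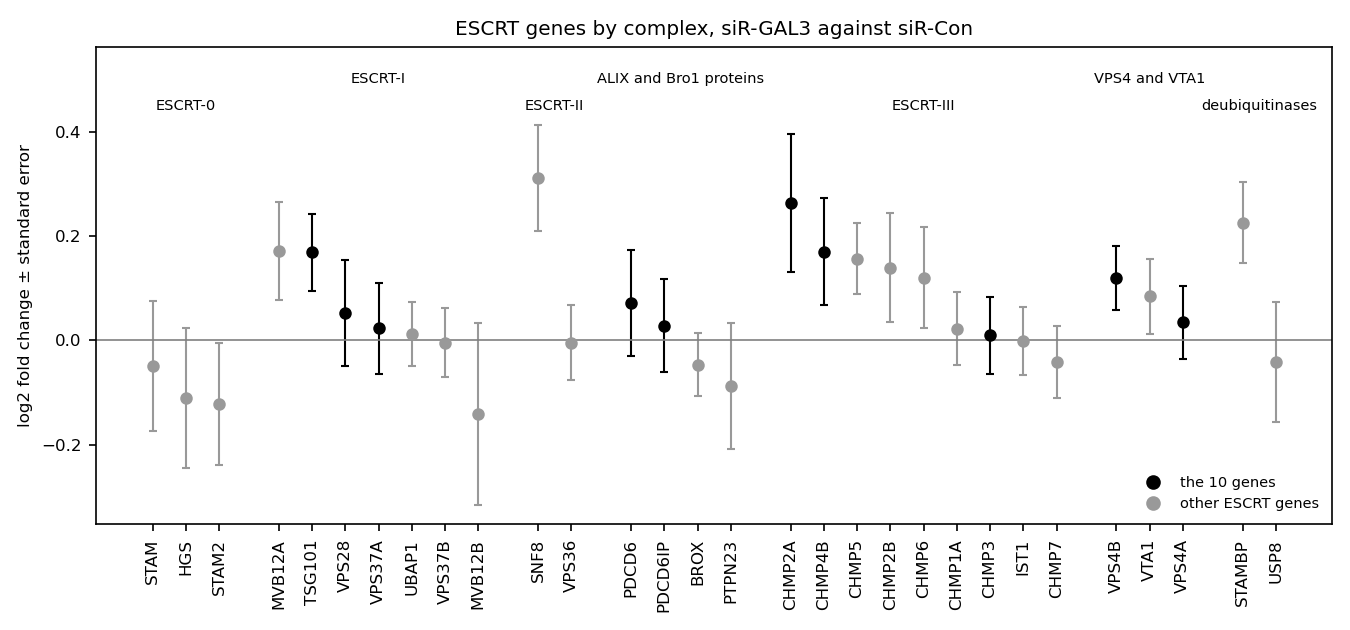
log2 fold change ± standard error (limma, log2(value + 1) scale, siR-GAL3 against siR-Con) of the 30 ESCRT genes tested, ordered by complex along the horizontal axis, with the 10 genes of lysosome repair in black and the others in grey. SNF8 at 0.31 is the highest and MVB12B at -0.14 the lowest, which without siR-GAL3 replicate 2 was at 0.07.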

How the data were processed

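RNA was measured in 6 libraries of rat spinal cord cultures that the study called neurons. The authors aligned reads with STAR, counted them with HTSeq, estimated FPKM, took out batch effects, standardized and adjusted for differences inside each group; the tools of the last steps and the genome build are not given in the sources used here. The deposited values are expression values that the authors derived from FPKM on a linear scale, where FPKM as such had been planned for. The labels name ribosomal RNA depletion, the supplement selection of polyadenylated RNA, which could change the transcripts counted. Depth is unknown and no counting error can be given.

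Values below 0 were set to 0, and log2(value + 1) of the 8495 genes whose mean reached 1 was fitted with limma 3.58.1 (R 4.3.3, intensity trend) on group alone. Adjusted p-values are Benjamini-Hochberg values over all of these genes. Exact permutation tests compared single genes (SciPy 1.17.1). The fit was tested on simulated data. Alternatives were no filter, a minimum mean of 10, a pseudocount of 0.1, quantile and median-ratio scaling, no trend, no logarithm, a replicate block, a library set block and each library left out in turn; within-set differences were added after seeing the data. The genes and lists were chosen with earlier results of these data known. Beyond the 10 genes and LGALS3, the genes named were, per list and direction, up to 3 with an unadjusted p under 0.05, the extremes of the other ESCRT list and the 3 nearest profiles to TSG101. MVB12A, CHMP5, CHMP7, OSBPL9, ATG2B, CHMP4BL1, GFAP, the ESCRT-0 genes and the neuron markers fall outside this rule and were named after their values were seen.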

Additional observations from a re-analysis of the deposited data

How the results depend on the processing

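The log2 fold changes of TSG101, CHMP2A, CHMP4B and VPS4B were positive under every alternative run, and no ESCRT gene of the 10 had an adjusted p under 0.05 in any. For TSG101 and VPS4B, whose groups did not overlap, leaving out a library could not have turned the sign. With library set as a block, the sign turned for VPS28 (-0.045), PDCD6 (-0.0372), CHMP3 (-0.04) and VPS4A (-0.0162), leaving 6 of 10 positive. In this fit 1 of the 10 had an unadjusted p under 0.05, against 1174 of all 8495 genes. It rests on the same libraries as the fit without siR-GAL3 replicate 2, which is a set of its own. Leaving out 1 library at a time gave log2 fold changes of 0.13 to 0.23 for TSG101, -0.0395 to 0.127 for VPS28, -0.0562 to 0.0688 for VPS37A, -0.016 to 0.114 for PDCD6IP, -0.037 to 0.127 for PDCD6, -0.0406 to 0.0552 for CHMP3 and -0.0161 to 0.0681 for VPS4A, with 6 to 10 of the 10 positive, a median of 0.0488 to 0.127 and 0 to 2 unadjusted p under 0.05. Over all 8495 genes, leaving out 1 library gave 344 to 1388 such p. The 2 among the 10 came without siR-GAL3 replicate 1, where all genes gave 1249. There were 2 such p with no filter (1623 of all 17648 genes) and 2 with no logarithm (750 of 8495). With a mean of at least 10, only 4 of the 10 were tested, all 4 positive, with a median of 0.17. Within set 1 the TSG101 difference was 0.0756, and within set 2 TSG101 minus the other 9 was 0.14. Same-numbered libraries of both groups did not deviate together (correlations -0.17, -0.07 and 0.04). The authors had taken out batch effects and adjusted within groups, so these correlations cannot settle whether the numbers pair the libraries. The replicate block left TSG101 at 0.17 (adjusted p = 0.695, limma) and gave 6 genes of 8495 with an adjusted p under 0.05 in place of 0, none of them among the 10. The causes were not tested. The number of libraries and the correction within groups by the authors limit what the spread shows.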

Other observations

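Other genes of the response to lysosome damage were listed with the ESCRT genes. Of 35, 34 were in the table and 28 had a mean of at least 1. Of these 28, 11 had a positive and 17 a negative log2 fold change, with a median of -0.05. None had an adjusted p under 0.05 in limma, while 6 had an unadjusted p under 0.05, against 8.66% of all genes. LGALS3, the targeted gene, is 1 of the 17 and 1 of the 6. Leaving out 1 library moved the count of unadjusted p under 0.05 from 2 (without siR-Con replicate 2 or 3) to 10 (without siR-GAL3 replicate 1). It was 3 without siR-GAL3 replicate 3. Over all 8495 genes that count was 350 without siR-Con replicate 2 and 344 without siR-Con replicate 3. There it was 1249 without siR-GAL3 replicate 1 and 575 without siR-GAL3 replicate 3. LGALS9, which encodes another galectin, had values of 1.18, -0.306 and -0.493 in siR-Con and 4.77, 2.12 and 2.62 in siR-GAL3. Its groups did not overlap, with a log2 fold change of 1.63 (adjusted p = 0.232), which was 1.82 without siR-GAL3 replicate 2 (adjusted p = 0.0466) and 1.66 with library set as a blocking term (adjusted p = 0.00394). These last 2 fits rest on the same libraries. The fold and the p-values of LGALS9 depend on the values below 0, which were set to 0. This made the siR-Con values of replicates 2 and 3, both in set 2, equal and removed their spread. Of all 8495 genes, 1.97% had an adjusted p under 0.05 in limma without siR-GAL3 replicate 2. With the set block 1.25% did. ANXA1, a calcium-dependent membrane-binding annexin, had 4.26, 2.97 and 3.25 in siR-Con and 4.61, 5.73 and 5.23 in siR-GAL3 (log2 fold change 0.47, adjusted p = 0.333), and its log2 difference was 0.09 within set 1 and 0.60 within set 2. RAB8A, a small GTPase recruited to stressed lysosomes by the kinase LRRK2, had 8.77, 9.0 and 8.87 in siR-Con and 9.67, 10.7 and 10.6 in siR-GAL3 (log2 fold change 0.20, adjusted p = 0.507), and 0.13 and 0.22 within sets 1 and 2. The microglia marker sum was higher in every siR-GAL3 library than in every siR-Con library, and its part in these values was not tested. All 6 genes tested of lipid transfer to damaged lysosomes had negative log2 fold changes, against 50.0% positive among all genes. However, siR-GAL3 replicate 2 was the lowest library in 5 of the 6, against 35.1% of all genes. Without it OSBPL9 (0.0123) and ATG2B (0.0013) were positive. OSBPL11 was the lowest of the 6 at -0.17 (adjusted p = 0.523), with 2.35, 2.50 and 2.47 in siR-Con and 2.18, 2.02 and 1.96 in siR-GAL3, and log2 differences of -0.08 within set 1 and -0.23 within set 2.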
